A study of Mus musculus with 24 samples.

Results

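Regulatory T cells (Treg) of the mouse spleen were compared with Treg of the liver-draining lymph node (LDLN). A gene entered the comparison when 3 or more of the 6 libraries had a normalised read count of 10 or higher, which kept 16119 of the 35612 genes in the table. The series holds 24 libraries of poly(A) RNA: Treg and conventional CD4 T cells (Tconv) from spleen, LDLN, liver and blood (PBMC), with 3 libraries in each of 8 groups. All groups, controls included, came from male C57BL/6 mice of 5 months that carry the Foxp3Thy1.1 reporter, in which the surface protein Thy1.1 marks cells expressing Foxp3, and no group was treated. Each library is a pool of 3 mice. Cells were enriched for CD4 and then sorted as live leukocytes (CD45+) that were CD4+ and TCRβ+, with CD8α+ cells, NK-1.1+ cells and cells binding the CD1d tetramer gated out, and with Foxp3 splitting Treg from Tconv. The labels do not say whether the pools of different tissues came from the same mice, and p-values measure only the spread between pools.

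Treg are CD4 T cells that restrain other immune cells and depend on the transcription factor Foxp3 and on the cytokine IL-2. In lymph nodes and spleen, resting cells recirculate through the lymphoid zones, whereas activated effector Treg express molecules used in non-lymphoid tissue, such as the repair factor amphiregulin and the receptor for IL-33. Immediate-early genes (the Fos, Jun, Nr4a and Egr families) are transcribed within minutes of a stimulus, among them antigen receptor signals and mechanical or thermal stress during cell preparation, and NF-κB target genes follow similar signals. The spleen filters blood and its red pulp holds macrophages that recycle iron from old red cells, while a lymph node filters tissue fluid.

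The sort was checked first on marker genes. Foxp3 stood at 1698, 1919 and 1979.8 normalised reads in spleen Treg libraries 1 to 3 and at 1787, 1856 and 1906 in LDLN Treg libraries 1 to 3. The groups overlapped, and the log2 difference (spleen minus LDLN throughout) was 0.01 ± 0.11 (SE; adjusted p = 0.958, limma with Benjamini-Hochberg adjustment over the 16119 genes). Thy1, whose reporter-linked form was used for sorting and whose reads cannot be split here from the natural gene, did not pass the test either (log2 difference -0.11, adjusted p = 0.472). The 9 CD4 T cell markers summed to 135052 to 151045 in spleen Treg and 124626 to 131797 in LDLN Treg, so their defining markers were present in all 6 libraries.

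Markers of other cells were also present, and many were higher in spleen, where 18.3% of all genes tested were higher and 13.4% lower at an adjusted p under 0.05. In this and the later lists, members are named where 5 or fewer passed in 1 direction, for some of them after their values were seen. In these lists, a gene with all 3 LDLN values below 10 was tested only if all 3 spleen values reached 10. Such a gene could only be higher in spleen, so its direction was fixed by the filter. Red pulp macrophage markers rose in 10 of 10 tested members (summed 5533 to 8014 in spleen and 343 to 438 in LDLN), and erythroid markers in 7 of 7 (11732 to 50380 against 364 to 918). Without the filter on low values 10 of 11 macrophage, 7 of 8 erythroid and 5 of 5 platelet markers were higher. B cell markers rose in 9 of 10 members, with sums of 8919.7 to 24046 against 1785 to 5370. In the dendritic cell list 4 of 8 rose (Itgax, H2-Aa, H2-Ab1 and Cd74) with Zbtb46 lower (28956 to 83889 against 4679 to 14569). H2-Aa, H2-Ab1 and Cd74 are antigen presentation genes that B cells also express, so the sum is not specific to dendritic cells. In spleen libraries 1 to 3 it was 83889, 34557 and 28956, beside B cell sums of 24046, 9106 and 8919.7. The part of B cells in it was not tested. Plasma cell markers rose in 3 of 4 (Jchain, Sdc1 and Mzb1), monocyte and neutrophil markers in 3 of 5 (Lyz2, S100a9 and Itgam) and platelet markers in 3 of 3 (Pf4, Ppbp and Itga2b). Single markers rose for NK cells (Klrd1, 1 of 4 tested), node stroma (Prox1, the only 1 of 9 listed that was tested) and endothelium (Stab2, 1 of 3 tested). Without the filter 1 of 7 NK, 1 of 9 node stroma and 1 of 7 endothelium markers were higher and 0 lower. The node stroma median was then -0.20. Of 4 CD8, γδ and innate T cell markers Cd8a was higher and Cd160 and Tcrg-C1 were lower, and each of these 3 calls was lost when certain single libraries were left out, among them LDLN library 2 and LDLN library 3, and of 2 basophil and mast cell markers Cpa3 was lower. Among all listed markers in the table Gp1bb was at 0 in both groups and Ppbp at 0 in LDLN Treg; the others had at least 1 read in each group. In bulk RNA, fewer cells of a type and less RNA per cell cannot be told apart.

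**Figure D1:**
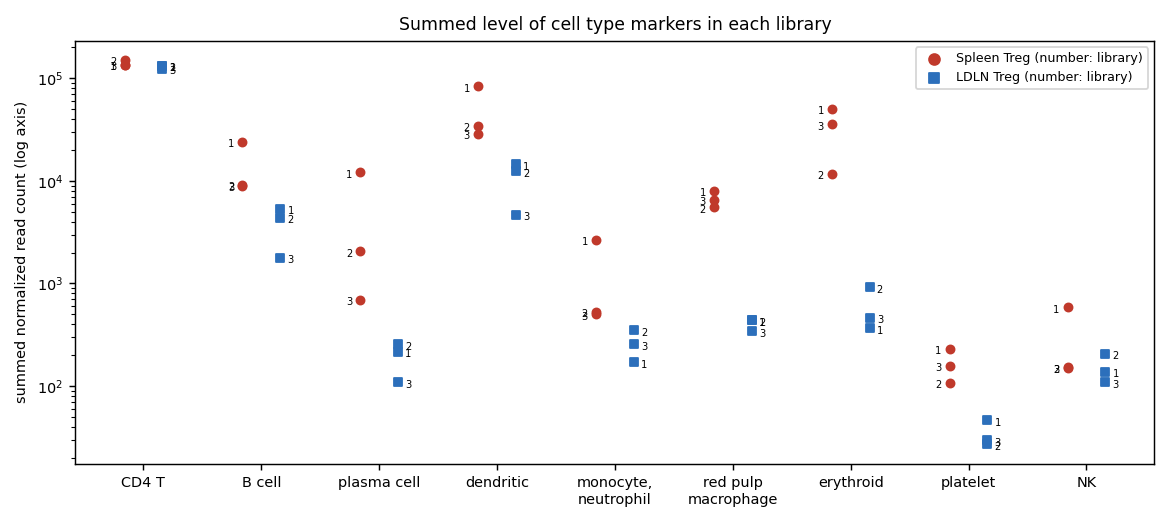
Summed normalised read count (log axis) of cell type markers in the 3 spleen Treg libraries (circles) and the 3 LDLN Treg libraries (squares), numbered by library. The 3 spleen values lie above the 3 LDLN values for every list shown except NK, by little for CD4 T markers. Spleen library 1 is far above spleen libraries 2 and 3 for the B, plasma, monocyte and dendritic lists.

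Spleen Treg library 1 stood apart from the other 2 spleen libraries. Its plasma cell markers summed to 12164.5 against 2053 and 690.3 in libraries 2 and 3, and its monocyte and neutrophil markers to 2676 against 529 and 499. The call of Lyz2 was lost without it, and also without LDLN library 1 or 3. Without it, 6 of 10 B cell markers remained higher in spleen, as did 10 of 10 macrophage and 7 of 7 erythroid markers. The 6 libraries were similar in depth, with 20101064 to 24703000 reads assigned to genes, and among them the first principal component, with 73.6% of the variance, separated spleen from LDLN.

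Spleen and LDLN Treg differed in 5116 genes, or 31.7% of those tested, at an adjusted p under 0.05. Of these, 2949 were higher in spleen (18.3% of genes tested) and 2167 lower (13.4%). The large differences lay mostly on the spleen side. At least 1 log2 unit separated 1266 higher genes (7.85%) and 738 lower genes (4.58%), at least 2 units 530 and 100 genes, and at least 4 units 110 and 1 gene. The 3 spleen and 3 LDLN values did not overlap for 8272 genes (51.3%), and the median log2 difference of all genes was 0.01. The split between directions depended on scaling: 57.6% of called genes were higher in spleen as deposited, 43.3% after quantile scaling (2469 higher and 3235 lower) and 47.0% after upper quartile scaling (2546 and 2873). Protein-coding genes were more often higher (20.5%) than lower (12%). Of 1485 genes annotated as long non-coding or as still to be checked, 8.01% were higher and 23.1% lower.

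The 12 largest increases that met the naming rule (no overlap, and a spleen mean of 50 or higher) fell into 3 kinds of gene by their known roles. The first kind are genes of acute cell stimulation: Fosb and Fos, subunits of the AP-1 transcription factor, Dusp8, a MAP kinase phosphatase, and Plk2, a stress-induced kinase, together with Areg, which encodes amphiregulin. The second kind are genes of macrophages and monocytes: Slc40a1 (the iron exporter ferroportin), Adgre1 (the macrophage antigen F4/80), Fcna (a ficolin), Clec4n (Dectin-2) and the cytokine Il1b. The third kind are red cell genes, Hbb-bs (β-globin) and Slc4a1 (the band 3 anion exchanger).

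Fosb was measured at 3445, 3008 and 2373 normalised reads in spleen Treg and at 9.48, 16 and 26.7 in LDLN Treg. Fos was measured at 17140.5, 16747 and 14292 against 139, 129 and 153. All 3 spleen values of both genes lay far above the LDLN values, with log2 differences of 7.42 ± 0.43 (SE; adjusted p = 4.86e-08, limma) and 6.83 ± 0.21 (adjusted p = 1.53e-10). Areg stood at 1287, 1259 and 578 in spleen and at 6.64, 6.98 and 4.76 in LDLN, a log2 difference of 7.12 ± 0.39 (adjusted p = 3.06e-08, limma). Plk2 stood at 3605, 4613 and 4183 against 37.9, 48.9 and 58.1 (log2 difference 6.40). In Treg of the other tissues the mean of Fos was 18071 in liver and 383 in PBMC, and that of Areg was 290.2 and 9.38. Dusp8 had 880 reads in the 3 spleen libraries together and 2 in the LDLN libraries, a ratio of 420.4 after scaling (95% exact interval 116 to 3477, which covers counting error only).

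Slc40a1 stood at 2613, 2100.1 and 2589.9 in spleen Treg and at 41.7, 8.98 and 14.3 in LDLN Treg (log2 difference 7.02), and Adgre1 at 492, 284 and 299 against 3.79, 2.00 and 3.81 (6.41). Hbb-bs ranged from 5042 to 29158 in spleen and from 80.6 to 348 in LDLN; its reads may be shared with the near-identical Hbb-bt. Il1b stood at 647 in spleen library 1 and at 61.7 and 68.4 in libraries 2 and 3, and had no read in LDLN Treg. Its spleen mean was at least 89.3-fold higher than the floor of 3 reads per LDLN library, and at least 22.4-fold higher without spleen library 1. Adgre1 is itself a member of the macrophage marker sum, and Hbb-bs and Slc4a1 are members of the erythroid sum. The macrophage, monocyte and erythroid sums given above were also higher in spleen, and their part in the difference was not tested.

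**Figure D2:**
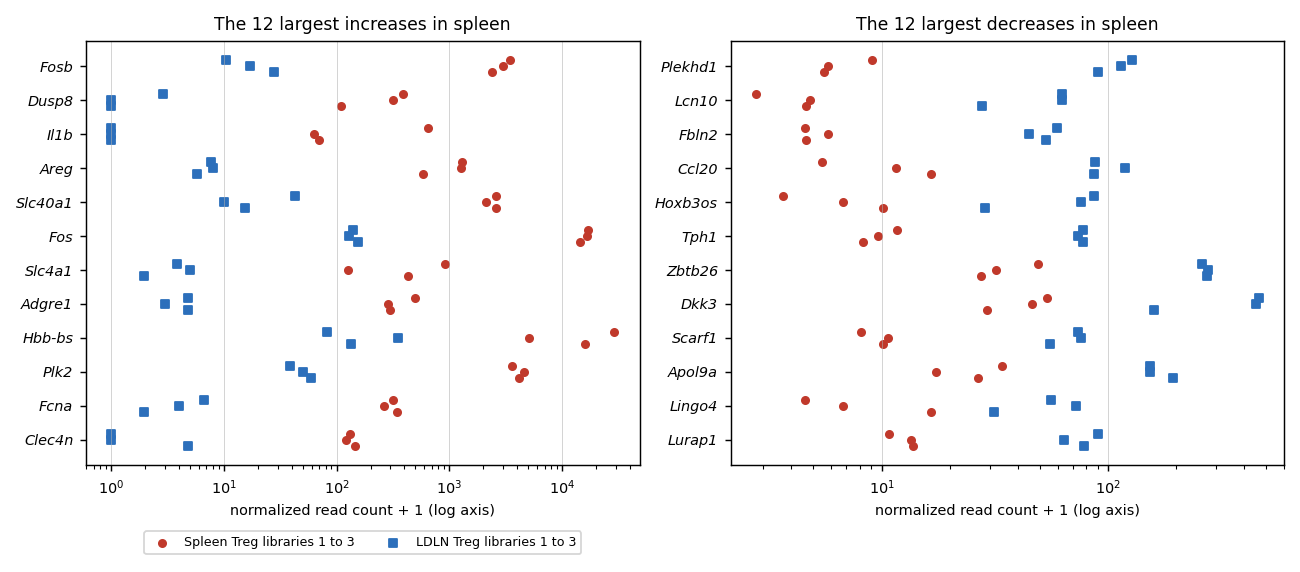
Normalised read count plus 1 (log axis) in each of the 3 spleen Treg libraries (red circles) and 3 LDLN Treg libraries (blue squares) for the 12 largest increases and the 12 largest decreases in spleen. Fos lies between 14292 and 17140.5 in spleen and between 129 and 153 in LDLN, and the groups do not overlap for any of the 24 genes, as the naming rule requires.

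Immediate-early genes were higher in spleen Treg as a group. Of 30 listed genes, all of which passed the filter, 25 rose and none fell, with a median log2 difference of 2.81 beside 0.01 for all genes tested. Ppp1r15a, a stress-induced phosphatase subunit, stood at 26592, 24873 and 20357 in spleen against 549, 497 and 641 in LDLN (log2 difference 5.41 ± 0.20, adjusted p = 9.80e-10, limma). Junb, another AP-1 subunit, stood at 2457, 2239 and 1968 against 129, 102 and 137 (4.17 ± 0.13), and Dusp5, a phosphatase of ERK, at 5274, 4077 and 3922 against 295, 378 and 408 (3.62 ± 0.14). The groups were far apart for all 3 genes, and each mean was higher in liver Treg than in PBMC Treg: 14156 and 1067 for Ppp1r15a, 1871 and 168 for Junb, and 1981 and 275 for Dusp5. Without spleen library 1 the count was 24 of 30. Red pulp macrophage markers summed to 493 to 978 in liver Treg, where Fos averaged 18071, and to 5533 to 8014 in spleen Treg, where it averaged 16059.9. The part of macrophages in the Fos values was not tested. The preparation of each organ cannot be told apart from the organ itself in this design.

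The 5 members that did not pass are named after their values were seen. They were the 3 Egr genes, zinc finger factors induced through antigen receptor and growth factor signals, together with Myc and Dusp6. Egr1 stood at 1217, 809.9 and 881 in spleen Treg and at 999.6, 1033 and 1081 in LDLN Treg (log2 difference -0.12, adjusted p = 0.570, limma). Egr2 stood at 1522, 1225 and 771 against 2289, 2239 and 2068, with all spleen values below all LDLN values and a log2 difference of -0.96 ± 0.38 (adjusted p = 0.0676). Egr2 passed as lower after quantile or upper quartile scaling, with a pseudocount of 10, in edgeR, and when only these 6 libraries entered the fit. Egr3 differed by -0.07 (adjusted p = 0.925). In contrast Nr4a1 and Nr4a3, nuclear receptors induced by the T cell receptor, rose by 3.39 and 3.21 on the log2 scale. Of the wider T cell receptor list 12 of 18 genes rose and none fell (limma; median 0.41), or 8 and 2 after quantile scaling.

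NF-κB genes rose in 15 of 16 members with none lower (median 0.85), and in 13 of 16 without spleen library 1. The largest increase was in an inhibitor: Tnfaip3, which encodes the NF-κB brake A20, stood at 60088, 67672 and 46809 in spleen Treg and at 1386, 1455 and 1133 in LDLN Treg. Its log2 difference was 5.45 ± 0.20 (adjusted p = 9.80e-10, limma), and the groups did not overlap. The NF-κB subunit Rel stood at 6675, 7174 and 4780.4 against 1251, 1061 and 1299.8 (2.35). The inhibitors Nfkbia and Nfkbid rose by 1.90 and 1.98. Bcl3, an atypical inhibitor family member named because it alone did not pass (adjusted p = 0.716), stood at 202, 212 and 152 against 217, 233 and 163.

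**Figure D3:**
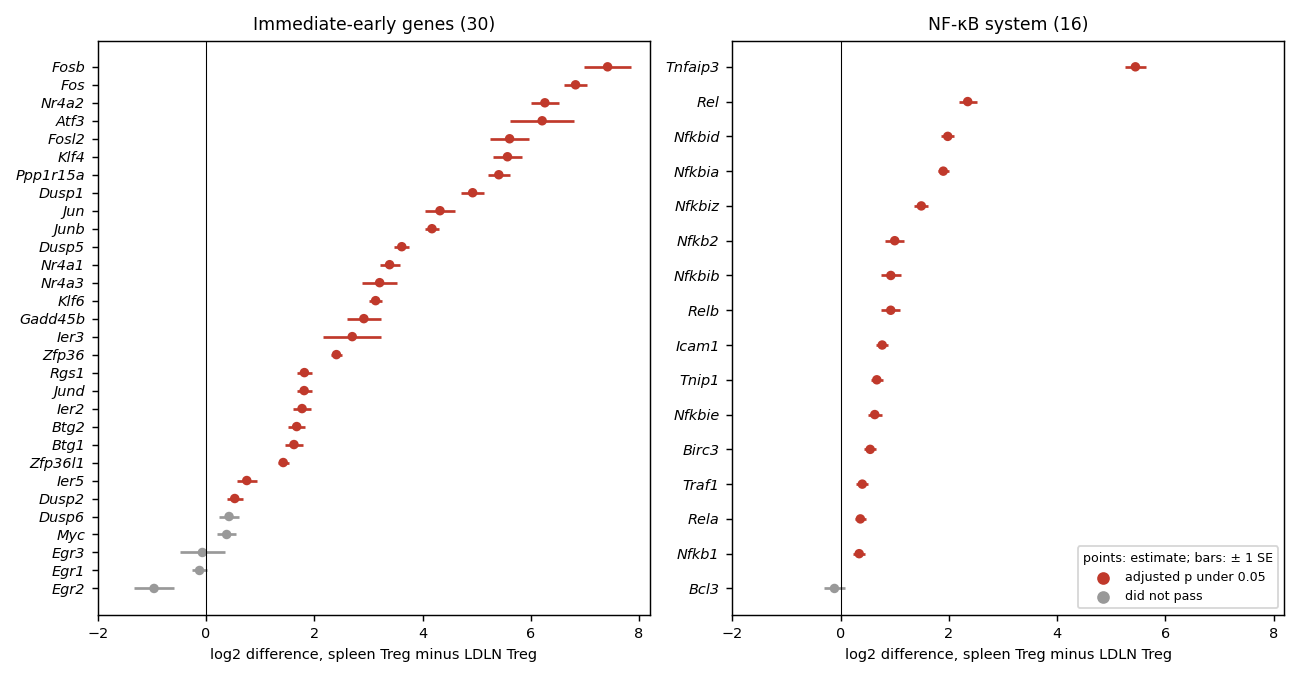
Log2 difference between spleen and LDLN Treg for 30 immediate-early genes and 16 genes of the NF-κB system; points are limma estimates and bars ± 1 SE, red where the adjusted p is under 0.05 and grey where it is not. Fosb at 7.42 and Tnfaip3 at 5.45 head the panels, and the 3 Egr genes lie below 0.

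The promoters of 5 of these genes, Dusp1 among them chosen after its values were seen, are shown because the genes moved together and each holds a match to a motif of a stimulus-responsive factor. Dusp1, a MAP kinase phosphatase, stood at 6556, 6425 and 4636 in spleen and at 192, 183 and 196 in LDLN (log2 difference 4.93). Each run is the 250 bases before a RefSeq transcription start (GRCm38.p6), read 5′ to 3′ on the gene's strand. Where a gene has several listed starts, the start with the most matches was taken, and the counts below accept a match at any start. Capitals mark matches to the cAMP response element TGACGTCA, the AP-1 site TGACTCA (searched on both strands) or the NF-κB consensus. The regions are chr12:85473640-85473889 (plus strand) for Fos, chr17:26508473-26508722 (minus) for Dusp1, chr7:45526269-45526518 (minus) for Ppp1r15a, chr10:19015411-19015660 (minus) for Tnfaip3 and chr5:91139349-91139598 (plus) for Areg.
Fos: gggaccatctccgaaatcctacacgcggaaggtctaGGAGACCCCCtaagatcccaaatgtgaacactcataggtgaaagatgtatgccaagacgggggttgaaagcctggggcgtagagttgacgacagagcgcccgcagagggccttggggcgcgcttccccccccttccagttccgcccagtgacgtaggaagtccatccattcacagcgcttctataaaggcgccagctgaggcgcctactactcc
Dusp1: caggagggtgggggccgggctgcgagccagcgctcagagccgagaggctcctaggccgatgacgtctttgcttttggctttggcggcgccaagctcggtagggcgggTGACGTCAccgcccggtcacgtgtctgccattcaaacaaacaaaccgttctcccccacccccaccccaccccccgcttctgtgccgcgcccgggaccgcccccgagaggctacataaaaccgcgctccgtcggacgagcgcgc
Ppp1r15a: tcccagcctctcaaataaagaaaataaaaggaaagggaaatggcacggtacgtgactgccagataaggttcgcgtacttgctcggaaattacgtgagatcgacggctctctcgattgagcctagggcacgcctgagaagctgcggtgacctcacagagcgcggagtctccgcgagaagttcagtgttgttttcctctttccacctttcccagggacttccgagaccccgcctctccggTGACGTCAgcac
Tnfaip3: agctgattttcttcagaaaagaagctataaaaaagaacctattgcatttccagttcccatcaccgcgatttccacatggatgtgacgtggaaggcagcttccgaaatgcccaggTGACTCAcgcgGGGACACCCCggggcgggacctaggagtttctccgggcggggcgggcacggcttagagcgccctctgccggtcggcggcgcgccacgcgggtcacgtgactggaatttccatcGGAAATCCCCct
Areg: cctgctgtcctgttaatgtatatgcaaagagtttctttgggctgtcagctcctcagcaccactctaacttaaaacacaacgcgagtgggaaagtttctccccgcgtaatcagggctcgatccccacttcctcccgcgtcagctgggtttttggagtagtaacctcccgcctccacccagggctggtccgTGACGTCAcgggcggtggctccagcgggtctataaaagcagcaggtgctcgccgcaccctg
The TGACGTCA element lay at -143 to -136 in Dusp1, at -12 to -5 in Ppp1r15a and at -61 to -54 in Areg, counted from the start site. It was found in 3 of 25 immediate-early genes with a promoter in the table, in 3.89% of the 2131 genes that were higher in spleen, in 2.13% of the 1408 lower genes, in 2.96% of the 10854 tested genes and in 1.77% of all 27025 genes. The NF-κB consensus was found in 7 of 13 NF-κB genes (53.8%), in 4 of 25 immediate-early genes, in 5.41% of tested genes and in 4.46% of all genes. TGACTCA was found in 2 of 13 NF-κB genes, 0 of 25 immediate-early genes, 3.94% of tested genes and 5.16% of all genes. A match is a run of letters and does not show that a factor binds there.

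Genes of effector Treg rose in 19 of 20 members, with none lower and a median log2 difference of 1.95. In Tconv 17 of these 20 genes were also higher in spleen and none was lower (median 1.63). Maf, named because it alone did not pass in Treg, differed by little (0.11, adjusted p = 0.781, limma). Lgals3 (galectin-3) stood at 224, 180.3 and 295 in spleen and at 18, 17.0 and 11.4 in LDLN (log2 difference 3.83). Anxa1, the anti-inflammatory protein annexin A1, stood at 335, 307 and 241 against 32.2, 37.9 and 18.1 (3.33), and Rora, a nuclear receptor, at 4401, 4751 and 3621 against 1182, 1334 and 984 (1.87). None of these groups overlapped. Il10, named after its values were seen, stood at 2822, 3205 and 1227 against 154, 199.5 and 69.5 (4.10 ± 0.43). Il1rl1, the IL-33 receptor, and Gata3, a factor of Th2 cells and tissue Treg, rose by 1.34 and 0.98. Some of these genes were higher still in liver, where the mean was 1096 for Lgals3 and 3740.3 for Il1rl1, while Il10 averaged 296 in liver and 16.1 in PBMC Treg. Lgals3, Anxa1 and Pparg are also expressed by macrophages, whose marker sum was higher in spleen than in LDLN Treg too. That sum was 5533 to 8014 in spleen, 493 to 978 in liver and 857 to 1054.5 in PBMC Treg. Anxa1 averaged 294 in spleen, 1131 in liver and 1454 in PBMC Treg, and Lgals3 233 in spleen and 836 in PBMC Treg. The part of macrophages in these values was not tested.

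Th1 genes rose in 5 of 10 members (Tbx21, Cxcr3, Ifng, Il18rap and Runx3; median 0.69) and Th2 genes in 3 of 5 (Gata3, Il1rl1 and Areg). The cytokine gene Ifng stood at 641, 675 and 421 in spleen Treg and at 43.6, 30.9 and 45.7 in LDLN Treg (log2 difference 3.81), and its regulator Tbx21 rose by 1.87. Cytotoxic genes rose in 7 of 13 (median 1.49, or 0.92 without spleen library 1), among them Gzmb (granzyme B, 3.33), Ccl5 (1.98) and Fasl (1.86). Ctsw, the protease cathepsin W, went the other way at 1372, 1360.5 and 1317 against 6125, 5709 and 5520.0 (-2.10 ± 0.12, adjusted p = 3.31e-08, limma), without overlap and with the smallest SE of the 13.

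The Treg core list was mixed, with 8 of 20 members higher and Il2ra, Ikzf4, Gpr83 and Socs2 lower (median 0.12). Ctla4, an inhibitory receptor, stood at 36250.2, 35926 and 26419.7 in spleen and at 8146, 9139.8 and 6224 in LDLN (2.07 ± 0.14). Lrrc32 (GARP, which presents latent TGF-β) and Tnfrsf4 (OX40) rose by 1.23 and 0.74. Il2ra, the high-affinity IL-2 receptor chain, was lower at 11309, 14536 and 17714 against 21263, 21347 and 23816, without overlap (-0.63 ± 0.15, adjusted p = 0.00649, limma; 0.305 when all 24 libraries entered the fit). Socs2, a STAT5 target, stood at 366, 437 and 549.9 against 1009, 906 and 1088 (-1.17). In the IL-2 and STAT5 list as a whole 6 of 13 members rose and Il2ra, Socs2, Bcl2 and Lta fell, with Pim1 (2.10), Socs3 (1.22) and Stat5a (0.90) among those higher. The core list depended on the fit: 2 members were higher and 2 lower with all 24 libraries, and 5 and 8 after quantile scaling. Its higher count was 4 without spleen library 1, spleen library 2 or LDLN library 2, and 5 without LDLN library 1 or 3, and Gpr83 did not pass without spleen library 1.

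Proliferation genes were higher in spleen Treg, with 25 of 30 cell cycle genes up, 1 down and a median of 1.41. Mki67, the proliferation marker Ki-67, stood at 2355, 2616 and 2549 in spleen and at 629, 782 and 764 in LDLN (log2 difference 1.79 ± 0.19, adjusted p = 1.31e-05, limma). The mitotic kinases Plk1 and Bub1 rose by 2.61 and 2.04, and Pcna, the DNA polymerase clamp, by 0.83. Mki67 averaged 6438 in liver Treg and 2475 in PBMC Treg. The lower member was Ccne1 (cyclin E1, -0.75), which did not pass without spleen library 2 or LDLN library 3.

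Genes of migration changed in both directions. Chemokine receptors rose in 10 of 18 members and fell in 2, Ccr6 and Ccr9 (median 0.93). Cxcr4, the receptor for CXCL12, stood at 4658, 4831 and 2748 in spleen and at 346, 518 and 282 in LDLN (log2 difference 3.42), and Ccr3 at 551, 427 and 528 against 29.4, 30.9 and 33.3 (3.96). Ccr7, which guides T cells into lymphoid T cell zones, was also higher at 26317, 27925 and 22733 against 9881, 9539 and 10036 (1.38 ± 0.15). Klf2, the factor that drives recirculation genes, rose by 2.16 and Il7r by 0.56, while Id3, which maintains resting Treg, fell by 2.19 on the log2 scale, from 6432, 5582 and 6717 in LDLN to 1257, 1301 and 1556 in spleen. In the naive and homing list 7 of 16 rose, and Id3 and Bcl2 fell. Of 14 residency and egress genes tested 7 rose, and Itgae, Rgs10, P2rx7 and Zfp683 fell. Rgs2, a G protein regulator, rose by 4.86, Bhlhe40 by 3.72 and Cd69, which blocks S1P-driven egress, by 2.33. Integrins rose in 9 of 18 and fell in 2 (Itga4 and Itgae), with Itgav and Itgb1 up by 1.75 and 1.47. Itgax (4.62), Itgam and Itga2b are also markers of dendritic cells, monocytes and platelets. They are members of those marker sums, which were higher in spleen.

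Of 16 gut homing and retinoic acid genes 7 were lower in spleen, 2 higher (Ccr10 and Rxra) and 7 did not pass, with a median of -0.41; the share lower among all genes was 13.4%. Ccr9, the receptor that guides T cells to the small intestine, stood at 244, 228 and 329 in spleen Treg and at 1499, 2159 and 872 in LDLN Treg (-2.42 ± 0.28, adjusted p = 2.37e-05, limma). Stra6, a retinol transporter, stood at 73.3, 62.7 and 84.8 against 234, 339 and 241 (-1.86), and Ccr6 at 956, 1004 and 1097 against 2567, 2232 and 1886 (-1.12). The groups did not overlap for any of the 3. Dhrs3, a retinaldehyde reductase that retinoic acid induces, and Itgae, the integrin chain CD103, were named after their values were seen; they differed by -1.82 and -1.24. Ccr10, a skin and mucosal homing receptor, was higher in spleen (3.09). Means in liver Treg lay between those of spleen and LDLN for Ccr9 (634) and Ccr6 (1445), but below both for Stra6 (41.1).

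Th17-associated genes fell in 3 of 6 members tested (Il23r and Ccr6 among them) and rose in 1, Rora (median -0.41). Il23r, a receptor chain for IL-23, stood at 10.7, 12.5 and 9.12 against 31.3, 65.8 and 15.2 (-1.48, adjusted p = 0.0450, limma). The Il23r call was lost when any 1 library other than LDLN library 3 was left out. In the TGF-β list 8 of 17 members rose (5 without spleen library 1, LDLN library 1 or LDLN library 3) and Tgfbr1, Tgfbr3 and Itgae fell, of which Tgfbr3 did not pass without any 1 library other than spleen library 3. The counts were 5 and 5 after quantile scaling and 5 and 4 after upper quartile scaling. Tgif1, a repressor of the pathway, stood at 9887, 10281 and 6679.9 against 1305, 1394 and 1188 (2.76), while the receptor chain Tgfbr1 stood at 2269, 2847 and 2646 against 5532, 5775 and 5912 (-1.15 ± 0.10).

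The 12 largest decreases were smaller in size than the 12 largest increases. Plekhd1, a gene of little-studied function, stood at 8.05, 4.82 and 4.56 in spleen and at 126, 113 and 89.5 in LDLN (-4.04 ± 0.73, adjusted p = 0.000926, limma). Fbln2, the matrix protein fibulin-2, stood at 3.58, 4.82 and 3.65 against 58.8, 43.9 and 52.4 (-3.39), and Ccl20, the ligand of CCR6, at 4.47, 10.6 and 15.5 against 86.3, 118 and 85.7 (-3.25). Zbtb26, a zinc finger factor, stood at 48.3, 30.9 and 26.4 against 259.8, 276 and 272 (-2.95). Tph1, the enzyme that starts serotonin synthesis outside the brain, stood at 10.7, 8.68 and 7.30 against 76.8, 72.8 and 76.2 (-2.96). The others were Lcn10 (-3.59), Hoxb3os (-3.18), the secreted WNT antagonist Dkk3 (-2.94), the scavenger receptor Scarf1 (-2.82), Apol9a (-2.72), Lingo4 (-2.65) and Lurap1 (-2.60). Plekhd1 and Fbln2 averaged 5.88 and 20.4 in liver Treg, and 4.37 and 3.35 in PBMC Treg, so the LDLN mean was the highest of the 4 tissues for both. Hoxb3os is antisense to a Hoxb gene and the strand setting of the count is not given in the sources used here; Apol9a has a near-identical copy.

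Metabolic and stress genes shifted to differing degrees. Cholesterol genes rose in 13 of 21 members and fell in 2, Sc5d and Abca1 (median 0.47). The higher count was 9 after quantile scaling (3 lower), after upper quartile scaling or without LDLN library 1. It was 10 without spleen library 2 or 3. The SREBP regulator Insig1 stood at 2633, 2151 and 1952 against 606, 748 and 643 (1.75). Glycolysis genes rose in 10 of 20, but in 5 without spleen library 1 and in 6 without spleen library 2 or LDLN library 3 or after quantile scaling. Fatty acid genes rose in 7 of 17 with Scd2 lower, and in 4 without any 1 library other than spleen library 3. Iron, heme and NRF2 genes rose in 8 of 15 (median 0.67). Hmox1, the heme-degrading enzyme, stood at 1569, 1071 and 1470.0 against 111, 87.8 and 63.8 (3.97). The macrophage marker sum was also higher in spleen, and its part in the Hmox1 values was not tested. ATF4 stress genes rose in 7 of 11 (median 0.48) with Ddit4 lower, led by Sesn2 (1.57), Xbp1 (1.35) and Atf4 itself (1.28). Heat shock genes rose in 5 of 13 (Hspa1a, which has a near-identical copy, Hspa5, Dnaja1, Bag3 and Hsf1; median 0.84), in 3 with all 24 libraries in the fit, and Hspa1a was lost without any 1 library other than spleen library 3. Circadian genes rose in 8 of 15 (median 0.68), with Per3 lower except without spleen library 2 or 3 or LDLN library 1 or 2. Per1 stood at 2745, 2298 and 1666 against 206, 199 and 192 (3.46), and Nfil3 rose by 3.49.

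The remaining lists had medians of 0.43 or lower. Among all genes tested 18.3% were higher and 13.4% lower, and some counts below, such as that of follicular genes, lie near these shares. Nuclear genes of oxidative phosphorylation rose in 3 of 28 members (Uqcrc1, Atp5a1 and Atp5b; median 0.02), or 1 when any 1 library was left out, and none of the 12 mitochondrially encoded genes passed (limma; median 0.01). After quantile scaling 1 nuclear gene was higher and 7 lower, and 3 mitochondrially encoded genes were lower; after upper quartile scaling 1 nuclear gene was higher and 3 lower. Interferon-induced genes rose in 8 of 32 and fell in 3 (Ifit2, Igtp and Irgm1; 5 without spleen library 2; median 0.08), and Ifit2 was lost without spleen library 1 or LDLN library 2. The counts were 7 and 9 after quantile scaling, 7 and 7 after upper quartile scaling, and 8 and 7 with all 24 libraries or only these 6 in the fit. Rsad2 (viperin) stood at 1134, 371 and 624 against 53.1, 51.9 and 97.1 (3.29), with spleen library 1 the highest. Follicular genes rose in 3 of 15 (Bcl6, Tox and Pou2af1), or 6 without spleen library 3, and Pou2af1 (1.71) is also a B cell gene that moved with library 1, at 1087 against 433 and 264 in libraries 2 and 3, and did not pass without spleen library 1 or LDLN library 3. Costimulation and checkpoint genes rose in 11 of 19 (median 0.43), with Cd96, Cd226 and Cd160 lower (1 lower without spleen library 1 or 3 or LDLN library 1 or 2). Of 8 GIMAP genes, GTPases of lymphocyte survival, Gimap5 and Gimap6 rose and Gimap4 and Gimap9 fell (Gimap4 not without LDLN library 2).

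**Figure D4:**
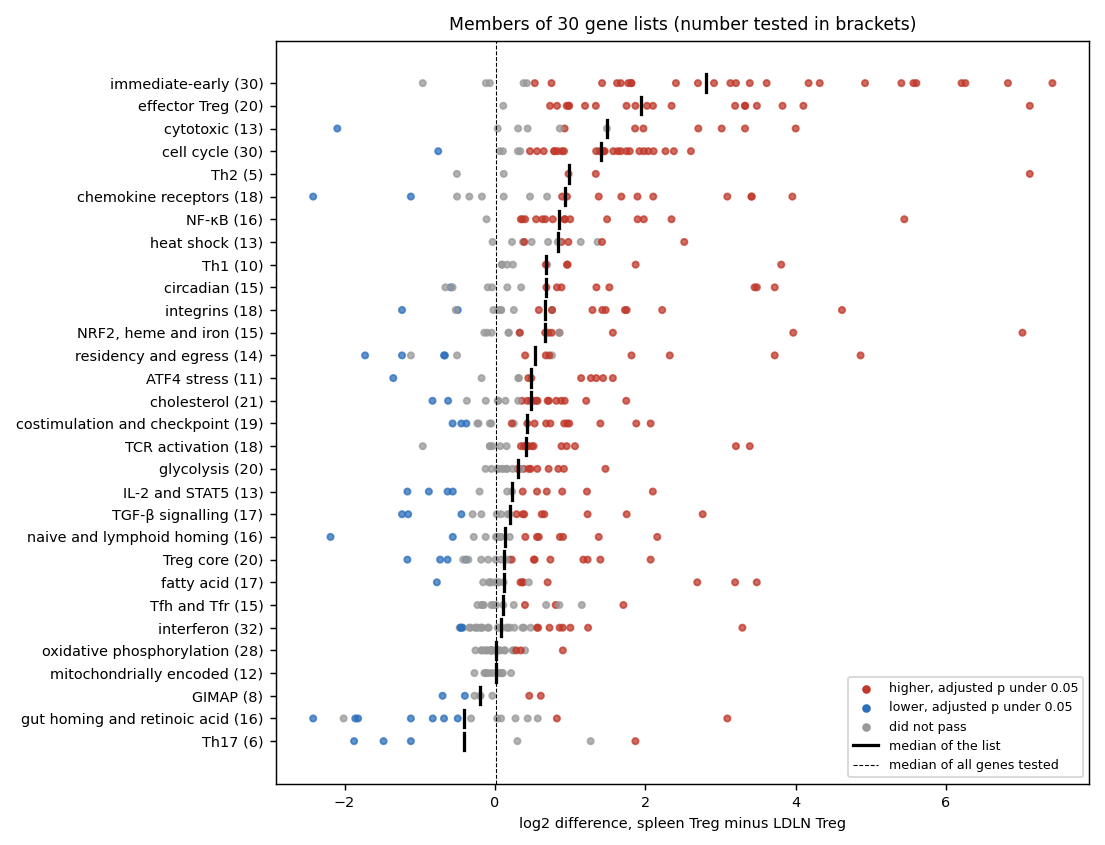
Log2 difference between spleen and LDLN Treg for every tested member of 30 gene lists, ordered by the list median (black bar); red and blue mark members with an adjusted p under 0.05, grey those that did not pass, and the dashed line is the median of all genes tested (0.01). Immediate-early (median 2.81) and effector Treg genes (1.95) lie highest, and Th17 and gut homing genes (both -0.41) lowest.

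The same tissues were compared in Tconv, whose libraries are separate from those of the Treg. Foxp3 split both cell types in the same sort, so mice and tissue preparation may be shared. The Treg and Tconv comparisons are therefore not shown to be independent. In the Tconv groups Foxp3 was not uniform: it stood at 21.2, 13.6 and 593 in spleen Tconv libraries 1 to 3 and at 25.4, 30.5 and 560.0 in LDLN Tconv libraries 1 to 3. The third library of each tissue therefore goes against its Foxp3- label in part. In Tconv 2212 genes were higher in spleen (13.7%) and 1828 lower (11.3%), and 3207 in all were called without those 2 libraries. Of the genes called in Treg 56.7% were called in the same direction in Tconv, and of those called in Tconv 71.9% were called in the same direction in Treg; 5 genes were called in opposite directions. Across genes, which are not independent replicates, the log2 differences had a Pearson r of 0.81. Immediate-early genes rose in 24 of 30 members in Tconv and NF-κB genes in 10 of 16 with 1 lower. Red pulp macrophage markers summed to 2095 to 2309 in spleen Tconv and 281 to 379 in LDLN Tconv. Fos differed by 6.63 in Tconv and by 6.83 in Treg, and Tnfaip3 by 5.32 and 5.45. Cell cycle genes passed upward in 9 of 30 in Tconv and downward in 1, with a median of 0.60. Counts of calls do not test whether the cell types differ.

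The difference between the cell types was tested with an interaction term over all 24 libraries. Only 30 genes passed (0.186% of those tested), 13 with a larger spleen-minus-LDLN value in Treg and 17 with a smaller one, although 1328 had an unadjusted p under 0.05. Sgk1, a kinase that regulates sodium transport and T cell differentiation, stood at 4356, 4879 and 3643 in spleen Treg and at 419, 479.8 and 564 in LDLN Treg, but at 4215, 4634 and 4101 in spleen Tconv and 3289, 3833 and 3777 in LDLN Tconv. LDLN Treg were thus the low group. The Treg difference exceeded the Tconv difference by 2.89 ± 0.25 on the log2 scale (adjusted p = 1.85e-06, limma). Fcgrt, the neonatal Fc receptor, showed the same form, at 291, 207 and 262 against 19, 29.9 and 22.9 in Treg and means of 199 against 139 in Tconv (interaction 2.85).

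Rgs1, a regulator of chemokine receptor signalling, rose in both cell types but less in Treg (1.82) than in Tconv (4.10), with an interaction of -2.29 ± 0.29 (adjusted p = 0.000655, limma). Its LDLN mean was 12378 in Treg and 958 in Tconv. Prg4 (lubricin) had opposite signs: it stood at 609.9, 855 and 778 in spleen Treg against 1692, 1906 and 1197 in LDLN Treg, and at 441, 471 and 439.8 against 228, 256 and 286 in Tconv (interaction -1.90). Fam234a (1.01) and Card6 (-0.86) completed the 6 genes with the smallest p. Tgfbr1, lower by 1.15 in Treg and by 0.30 in Tconv, also passed (-0.85, adjusted p = 0.00979). The adjusted p of each of these 7 genes was under 0.05 without Tconv libraries 3 of both tissues, where 15 genes passed in all. By list, 2 of 30 immediate-early, 0 of 20 effector Treg and 0 of 30 cell cycle genes passed. Among genes with a large difference in both cell types the interaction did not pass for Fos (0.19 ± 0.36, adjusted p = 0.921, limma), Fosb (0.84 ± 0.65) and Tnfaip3 (0.12 ± 0.34). A p above the threshold does not show that the responses were equal.

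**Figure D5:**
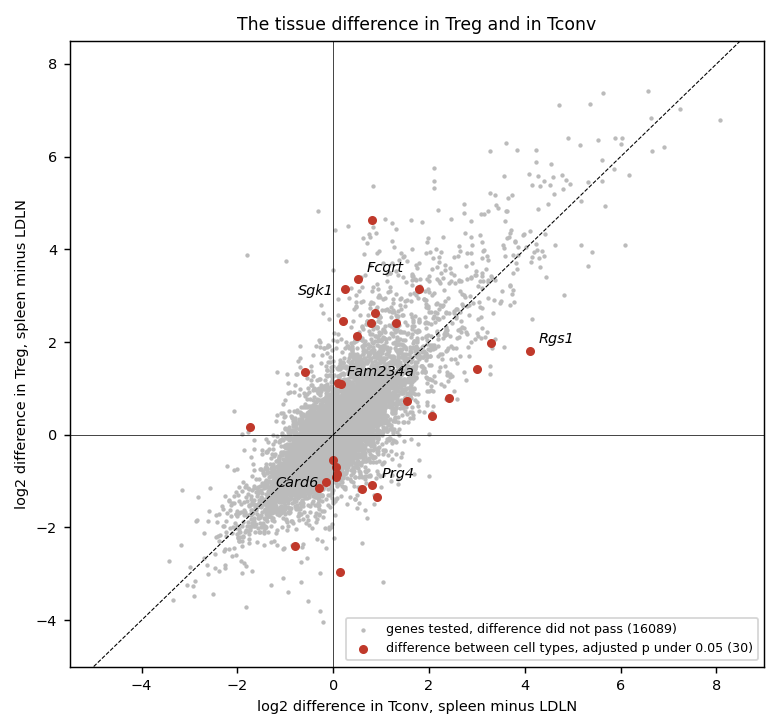
Log2 difference between spleen and LDLN in Tconv (x axis) and in Treg (y axis) for the 16119 genes tested; red points are the 30 genes whose difference between the cell types had an adjusted p under 0.05, and the dashed line marks equal values. Most genes follow the line, Sgk1 and Fcgrt lie above it with Tconv values of 0.25 and 0.52, and Rgs1 lies below it.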

How the data were processed

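RNA was reverse transcribed and amplified with SMARTer and sequenced as paired-end TruSeq libraries, per the labels' protocols. The submitters' processing notes name Trimmomatic 0.32, TopHat2 2.0.11, Bowtie2 2.2.2, SAMtools 0.1.19, HTSeq 0.6.1p1 and GRCm38, and the strand setting of the count is not given in the sources used here. The table the authors deposited holds a normalised signal per gene, gene counts divided by a size factor; 100% of values were whole reads (tolerance 0.001) once multiplied by each library's factor, which for libraries with a factor close to 1 rests on their higher values. The 24 libraries held 17523927 to 25398037 recovered reads. Differences are on the log2(value + 1) scale, which understates the change of low genes, and were tested with limma 3.58.1 (R 4.3.3) with a variance trend over the 12 Treg libraries; Tconv contrasts and the interaction used all 24. P-values were adjusted by Benjamini-Hochberg over 16119 genes, with a threshold of 0.05. Alternatives included edgeR 4.0.16 and DESeq2 1.42.0 on recovered reads, other pseudocounts, filters and scalings, the replicate number as a block, and each library left out. For the interaction the block was the number within each tissue. Code was tested on simulated data. Named genes are the 12 largest increases and 12 largest decreases (those called, without overlap and with a higher-group mean of 50 or more; predicted genes, receptor segments and pseudogenes left out), Foxp3, Il2ra and Thy1, up to 4 members of each list with the smallest p, and 6 genes of the interaction; exceptions are marked. Members and lists were chosen with earlier results of these data known. Intervals and floors cover counting error only, and promoters come from RefSeq (GRCm38.p6). Some genes are not reported here.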

Additional observations from a re-analysis of the deposited data

Results flagged for a closer look

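The spleen to LDLN difference itself differed between Treg and Tconv for 30 genes in the interaction test (limma, adjusted p under 0.05). Among the genes named, the Treg difference was the larger for Sgk1 (2.89 on the log2 scale), Fcgrt (2.85) and Fam234a (1.01). It was the smaller, or the more negative, for Prg4 (-1.90), Rgs1 (-2.29), Card6 (-0.86), Tgfbr1 (-0.85), Socs2 (-1.77) and Tph1 (-3.10). Socs2 and Tph1 passed narrowly, both with an adjusted p of 0.0498 (limma), and the call of each was lost in most fits that left out 1 library. Tph1 had an adjusted p of 0.102 without Tconv libraries 3 of both tissues, the libraries with a Foxp3 level above the others.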

How the results depend on the processing

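Requiring a log2 difference of 1 lowered the count for Treg from 5116 to 2004 genes (1266 higher, 738 lower). Every other alternative kept that count within 1.5 times, from 3824 to 4797 with 1 library left out, 5274 in edgeR and 5462 in DESeq2. The interaction count was less stable: 48 genes with a pseudocount of 10 (30 lower in Treg), 9 lower without a filter, 20 higher after quantile scaling, 15 without a variance trend (8 higher, 7 lower) and 48 in a fit of 12 libraries (28 higher). It was 15 (6 higher, 9 lower) without Tconv libraries 3 of both tissues, an alternative chosen after seeing the data, and 27 in edgeR. With 1 library left out it ranged from 11 to 32 genes (6 to 18 higher, 5 to 14 lower). It was 11 without spleen Treg library 1 or LDLN Treg library 1, 13 without LDLN Treg library 2, 15 without spleen Treg library 2, 18 without spleen Tconv library 3, 12 without LDLN Tconv library 1 or 2, and 15 without LDLN Tconv library 3. The cause of these changes was not tested.

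Replicate numbers did not clearly pair spleen Treg with LDLN Treg libraries. Same-numbered spleen and LDLN Treg deviations correlated at 0.20, 0.06 and 0.39, and LDLN library 2 correlated best with spleen library 1. With the number as a replicate block the Treg count was 5266, and 6973 in the fit of 6 libraries, and the Tconv count was 4492. For the interaction the block was the number within each tissue, which pairs Treg with Tconv, and the count was 56 (30 higher, 26 lower). The correlations above do not cover that pairing. Heat shock genes rose in 11 of 13 in either Treg fit with the block, against 5 without it.

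The sign turned only for genes that did not pass. Foxp3 was -0.11 after quantile scaling, -0.073 after upper quartile scaling and -0.00739 in edgeR, and ranged from -0.035 to 0.076 with 1 library left out. Maf was -0.068 after quantile scaling and ranged from -0.21 to 0.38, Bcl3 from -0.27 to 0.035 and Egr3 from -0.23 to 0.053. With 3 pools a group, small differences cannot be resolved.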

Other observations

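Klrk1 (NKG2D) and Klrd1 (CD94) differed by 3.02 and 2.71 on the log2 scale, and Klrc1, which has near-identical relatives, had 141 reads in spleen and 3 in LDLN, a ratio of 44.9 (95% exact interval 15.1 to 220.4). The NK marker sum was 584, 152 and 150.5 in spleen libraries 1 to 3 and 138, 206 and 109 in LDLN libraries 1 to 3, so it overlapped between the groups; its part in these values was not tested.

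Genes of lipid uptake and storage were among the fatty acid genes that rose: Cd36, a fatty acid transporter, by 3.48, Pparg, a nuclear receptor of fat storage and of tissue Treg, by 3.20, and Scd1, a desaturase, by 2.69. Macrophages also express Cd36 and Pparg, and the macrophage marker sum was higher in spleen than in LDLN Treg too. Its part in these values was not tested. Havcr2 (TIM-3) and Cd28 rose by 1.88 and 0.92.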
